A study of Drosophila melanogaster with 4 samples.

Results

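The regions described are the HP1b-enriched clusters in the centromere-proximal 2 Mb of 4 chromosome arms of Drosophila melanogaster, 2L, 3L, X and 3R. They were chosen by position alone, from the authors' combined set of clusters. A cluster belonged if any base of it lay in 21011545 to 23011544 of 2L, 22543558 to 24543557 of 3L, 20422828 to 22422827 of X or 1 to 2000000 of 3R (FlyBase release 5). This gave 575 of the 8426 combined clusters, with 183 on 2L, 184 on 3L, 81 on X and 127 on 3R. The same stretches held 305 of 5191 clusters in replicate 1 and 319 of 6337 in replicate 2.

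The material was homogenised tissue of wild-type Oregon-R larvae in the L3 stage, crosslinked with formaldehyde and precipitated with an antibody against HP1b. All libraries share the strain, the genotype and the stage. There were 2 HP1b ChIP libraries and 2 Input libraries, and only the ChIP libraries had files of their own among those analysed. Larval tissue is a mixture of cell types, so a cluster seen in few cells and one seen weakly in many cannot be told apart.

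HP1b is 1 of the heterochromatin protein 1 paralogues of the fly. These proteins carry a chromodomain, which in HP1a binds histone H3 methylated at lysine 9, and a chromoshadow domain, through which they pair and recruit partners. HP1a is concentrated in the repeat-rich heterochromatin around centromeres, whereas HP1b is known from both heterochromatin and euchromatin. The assembled arms of release 5 run from gene-rich euchromatin towards that heterochromatin, and further pericentromeric sequence lies on separate Het scaffolds.

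For every cluster the authors gave a position and a score, which is read here as a log2 value. Coverage is the percentage of bases of a stretch that lie in a cluster, and distance is counted from the centromere-facing end of the assembled arm. With 2 libraries an exact two-sided sign test cannot go below p = 0.5, so differences are given per library and as mean ± SD and no difference between regions is tested. Nothing in the labels says whether the libraries came from separate larval collections, and their spread may be technical. Sequencing depth is unknown because the files hold no read counts.

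The 4 ends had 4 different profiles of HP1b. On 2L the inner 1 Mb was more densely covered than the outer in both libraries, and an empty stretch of 228 kb began near 900 kb from the end. On 3R coverage was spread along most of the 2 Mb and well shared by the libraries. On X most steps were nearly empty and clusters stood in a few groups. On 3L many narrow clusters appeared in the combined set that neither library had. Over the 4 ends together, replicate 1 covered 9.91% and replicate 2 covered 11.0%, where they covered 9.67% and 13.2% of the same arms outside the ends. The ratio of end to remainder was 1.03 for replicate 1 but 0.831 for replicate 2 (0.928 ± 0.137, mean ± SD, n = 2), so the libraries did not share a direction. Median cluster width had no shared direction either, with a ratio of 0.989 for replicate 1 and 1.05 for replicate 2.

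On 2L, HP1b covered 18.3% of the inner 1 Mb in replicate 1 and 16.9% in replicate 2. The outer 1 Mb was covered to 8.43% and 10.3%. The inner-to-outer ratio was thus 2.18 for replicate 1 and 1.65 for replicate 2 (1.91 ± 0.374, mean ± SD, n = 2). Both libraries showed the higher inner value, and the rest of the arm, at 8.66% and 11.7%, lay close to the outer 1 Mb. In the combined set the inner 1 Mb reached 35.6% and the outer 12.8%.

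Going inward along 2L, an empty stretch lay next to a dense step. From 1100 to 900 kb from the end, replicate 1 covered 0% and then 0.563% of a step, and replicate 2 covered 0% of both. No list had a cluster between 21882901 and 22110981, a stretch of 228 kb that starts 901 kb from the end. The next step inward, 800 to 900 kb, was covered to 22.2% in replicate 1 and 25.5% in replicate 2. From there to the end, 5 of 9 steps of replicate 1 and 3 of 9 of replicate 2 exceeded 20%. The inner part was not evenly filled, since the step from 600 to 700 kb had only 2.76% and 4.97%. Outward of the empty stretch coverage resumed, with 17.8% and 19.6% from 1300 to 1400 kb and 15.2% and 20.0% from 1800 to 1900 kb. The rest of 2L had longer gaps, up to 487 kb in replicate 1, 353 kb in replicate 2 and 314 kb in the combined set. The step at the very end, 22911545 to 23011544, had the highest mean of the 2L steps. Replicate 1 covered 27.1% of it, replicate 2 covered 37.2% and the combined set 54.5%. In replicate 1 the steps from 500 to 600 kb (32.1%) and from 100 to 200 kb (27.7%) were denser. The mappability of the empty stretch was not tested.

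Broad clusters of the 2L end lay mostly in its inner 1 Mb. Of the 60 clusters of replicate 1 centred in the inner 1 Mb of 2L, 11 were at least 5 kb wide, against 0 of the 34 in the outer 1 Mb. In replicate 2 these were 7 of 54 and 1 of 35. In the combined set they were 15 of 133 (11.3%) and 4 of 50 (8%), so the shares were closer there. Over the 4 arms, 3.25% of replicate 1 clusters, 4.94% of replicate 2 clusters and 5.71% of combined clusters were that wide. The typical cluster of the inner 1 Mb was nonetheless narrower, with a median of 1879 bp for replicate 1 where the outer 1 Mb had 2272 bp. For replicate 2 these medians were 2172 bp and 2594 bp. Scores were lower as well. The inner median lay below the outer by 0.12 in replicate 1 (0.60 against 0.72) and by 0.28 in replicate 2 (0.72 against 1.00) on the log2 scale. Neither trait was particular to 2L. Inner minus outer score was -0.30 (replicate 1) and -0.36 (replicate 2) on X, and -0.17 and -0.28 on 3R. The inner-to-outer ratio of median width was 0.844 and 0.897 on X, and 0.982 and 0.940 on 3R. On 3L the libraries had opposite directions in both.

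The widest cluster of the 4 ends was at 22959714 to 22974232 on 2L, 37.3 kb from the end. It measured 14.5 kb, and a single cluster of each library covered 93.4% (replicate 1) and 98.7% (replicate 2) of it. The combined set scored it 1.41 on the log2 scale, replicate 1 scored it 1.26 and replicate 2 scored it 1.61. The second widest of 2L, at 22680862 to 22694536 (13.7 kb), was 1 cluster in the combined set but 3 in replicate 1 and 4 in replicate 2. The third, at 22167744 to 22178108 (10.4 kb), was a single cluster in replicate 1 and 3 clusters in replicate 2. Broad combined clusters of 2L were therefore in part runs of narrower clusters in the single libraries.

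The highest-scoring 2L cluster that both libraries touched lay outside the dense part, at 21793822 to 21798798. It was 4.98 kb wide with a combined log2 score of 2.38. Replicate 2 had 1 cluster there, scored 2.57, and replicate 1 had 2, the higher scored 2.89. The next were inside, at 22119746 to 22122954 (combined score 1.96) and 22245892 to 22250880 (combined score 1.82). The first of these lay 889 kb from the end, between the empty stretch and the other. The cluster nearest the end, at 23002402 to 23004584, had a combined score of 2.37 and a replicate 2 score of 2.68, and replicate 1 had no cluster there.

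**Figure D1:**
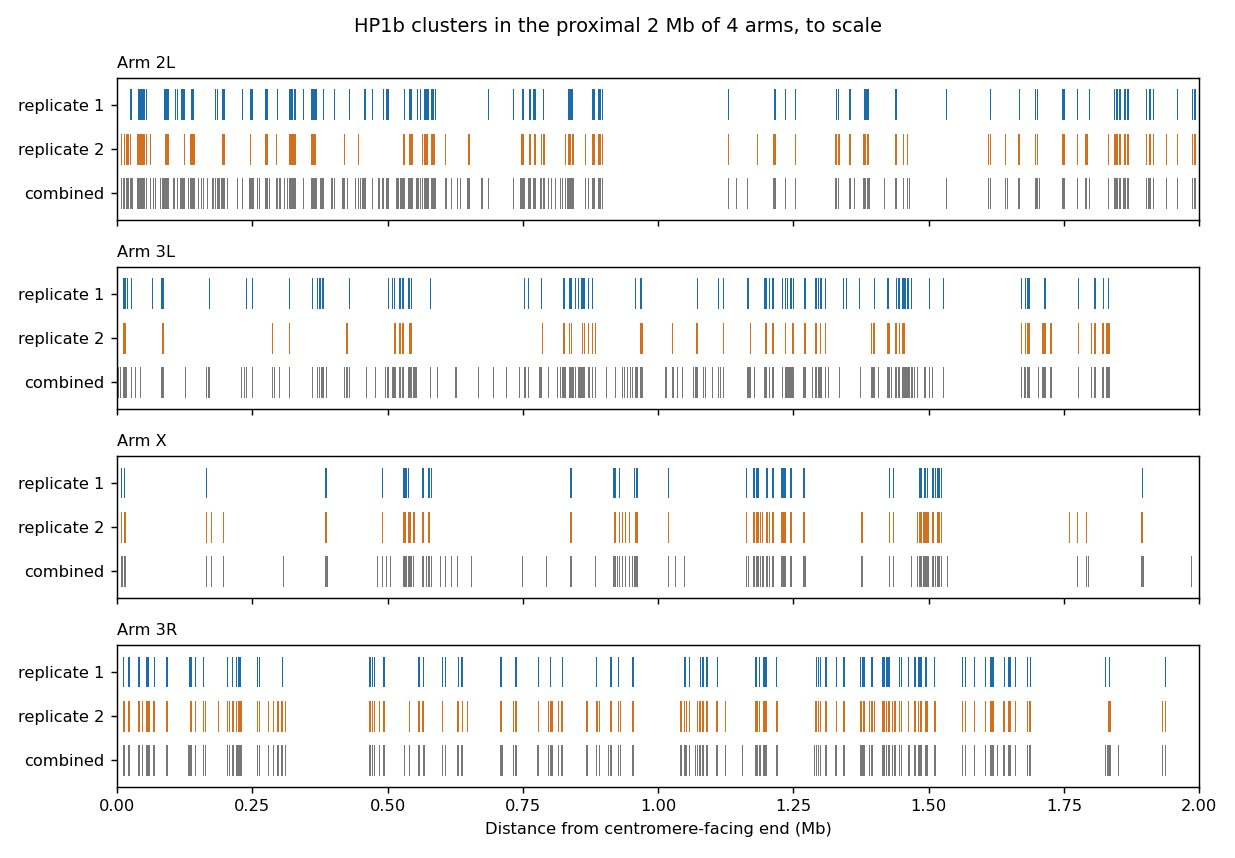
Each bar is 1 HP1b cluster drawn to scale against distance from the centromere-facing end, with a track each for replicate 1, replicate 2 and the combined set on 4 arms. The stretch of 228 kb with no cluster on 2L, the grouped clusters of X and the crowded combined track of 3L can be seen.

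On 3R the end was covered along most of its length. Replicate 1 covered 11.0% of the proximal 2 Mb and 8.70% of the remainder, and replicate 2 covered 15.0% and 11.8%, so that each gave a ratio of 1.27. The inner and outer 1 Mb were closer than on 2L, at 9.88% and 12.2% in replicate 1 and 14.4% and 15.5% in replicate 2. The densest step was 1400001 to 1500000, with 29.9% in replicate 1 and 37.2% in replicate 2. Between 1700001 and 1800000 no list had a cluster. The longest stretch with no cluster in any list measured 154 kb, from 311813 to 466295. The rest of 3R had longer gaps, up to 336 kb in each library and 335 kb in the combined set.

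Clusters of 3R were of ordinary width. Among clusters touched by both libraries, those of 3R held the highest combined scores of the 4 ends, though in replicate 1 the 2L cluster scored 2.89 was above the 3R maximum of 2.41. Only 3 of 127 combined clusters were at least 5 kb wide, 0 of 92 in replicate 1 and 1 of 118 in replicate 2, and each of these shares lies below that of the 4 arms. The widest, at 218884 to 230306 (11.4 kb), was split into 3 clusters in each library, of which replicate 1 had the widest at 4694 bp and replicate 2 at 4886 bp. The highest-scoring cluster, at 57010 to 60026, was 3.02 kb wide. Its combined score was 2.54, that of replicate 1 was 2.14 and that of replicate 2 was 3.00 (log2). A pair of others lay close together at 1472638 to 1476012 (combined score 2.49) and 1484252 to 1487464 (combined score 2.51), inside the densest step. The cluster nearest the end began at base 2 of the arm, where the assembled sequence starts, and only replicate 2 had a cluster there.

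On X the proximal 2 Mb was covered to 5.71% in replicate 1 and 7.46% in replicate 2. Of its 20 steps, 7 held no cluster in replicate 1 and 5 held none in replicate 2, and the median step was covered to 2.84% and 4.54%. Clusters were grouped, so that a few steps rose above the level of the arm. The densest, 21122828 to 21222827, had 18.6% for replicate 1, where X outside its end had 12.3%. Replicate 2 gave 23.1% there and 17.0% outside. The longest stretch with no cluster in any list measured 147 kb and lay 16.9 kb from the end, at 22258716 to 22405951. Between it and the end, both libraries had a cluster within 22413844 to 22416338, the combined cluster nearest the end. Replicate 1 scored it 0.84 and replicate 2 scored it 0.97. Within single lists, the longest gap of replicate 1 was 369 kb at the X end and 260 kb on the rest of X. In replicate 2 these were 259 kb and 260 kb, and in the combined set 147 kb and 232 kb.

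Though few, the X clusters did not have a lower median score than the rest of X in either library. The higher scores lay in the outer 1 Mb, with a median log2 score of 1.09 in replicate 1 and 1.24 in replicate 2. The inner 1 Mb had 0.78 and 0.88, close to the 0.76 and 0.91 of the rest of X. The median score of the X end was at percentile 70.0 of the replicate 1 list and 58.3 of the replicate 2 list, against 56.3 and 56.5 for the rest of X. The 3 highest-scoring that both libraries touched lay close together, with 2 lower-scoring clusters among them, at 21219912 to 21223568 (combined score 2.21), 21235976 to 21241530 (2.16) and 21243522 to 21248040 (1.88). Each was a single cluster in both libraries. The widest of X, at 21887534 to 21894502 (6.97 kb), was found almost whole by each library, replicate 1 covering 99.1% with a score of 1.46 and replicate 2 covering 91.3% with a score of 1.66. The next in width were 21500054 to 21505852 (5.80 kb) and 20901994 to 20907732 (5.74 kb), also single clusters in each library.

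On 3L the lists disagreed most. Replicate 1 covered 9.51% of the proximal 2 Mb and 9.37% of the remainder. Replicate 2 covered 7.82% and 12.7%, and the combined set 20.4% and 14.7%. The ratio was 1.02 for replicate 1, 0.614 for replicate 2 and 1.39 for the combined set. Within the end, the inner 1 Mb was covered less than the outer in both libraries, at 9.11% against 9.91% in replicate 1 and 6.16% against 9.49% in replicate 2, but slightly more in the combined set (21.0% against 19.7%). Coverage was highest from 1000 to 1500 kb, at 14.5% in replicate 1 and 11.6% in replicate 2. The step with the highest mean, 23243558 to 23343557, had 28.5% and 18.4%. In replicate 2 the step from 800 to 900 kb was denser, at 20.5%. The longest stretch with no cluster in any list was the outermost 166 kb, from 22543558 to 22709305. The rest of 3L had longer gaps, up to 405 kb in replicate 1, 404 kb in replicate 2 and 251 kb in the combined set.

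The extra combined clusters of 3L were narrow. The median width of combined clusters was 1538 bp at the end and 2183 bp on the rest of 3L, a ratio of 0.705. Replicate 1 had 2015 bp and 2187 bp (0.921), and replicate 2 had 2264 bp and 2243 bp (1.01). In the step 23843558 to 23943557, neither library had a cluster and the combined set had 9, with a median width of 1031 bp. The 3 widest combined clusters of 3L were only partly covered by the libraries. The widest, at 23678032 to 23688340 (10.3 kb, combined score 0.49), was covered to 65.1% by replicate 1 and 45.3% by replicate 2. The second, at 23296662 to 23306696 (10.0 kb), was covered to 40.3% and 29.1%, and the third, at 23078300 to 23086954 (8.66 kb), to 54.3% and 0%. Others of the 14 that reached 5 kb were found nearly whole. One chosen after its values were seen, at 23087416 to 23093752, measured 6337 bp, and the clusters there were 6206 bp (replicate 1) and 6272 bp (replicate 2). The combined cluster nearest the end, at 24540554 to 24543048, had a score of 0.54 and was touched by neither library.

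Some high-scoring clusters of 3L were found by both libraries. The highest of these, at 23330178 to 23333480, was 3.30 kb wide. Its combined score was 2.30, with 2.14 for replicate 1 and 2.48 for replicate 2. It was followed by 22733472 to 22737508 (combined score 2.21) and 24019602 to 24022538 (combined score 1.87). Width and score went together less at the end of 3L than on its remainder. The Spearman rho across clusters was 0.181 in the combined set of the 3L end and 0.730 on the rest of 3L, 0.406 against 0.766 in replicate 1 and 0.627 against 0.785 in replicate 2. A lower rho at the end was not particular to 3L. In the combined set it was 0.354 against 0.739 on 2L, 0.535 against 0.732 on X and 0.702 against 0.729 on 3R. The single libraries had the same direction on these arms, except replicate 2 on X (0.826 against 0.774). These are descriptions across clusters, which are not independent.

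**Figure D2:**
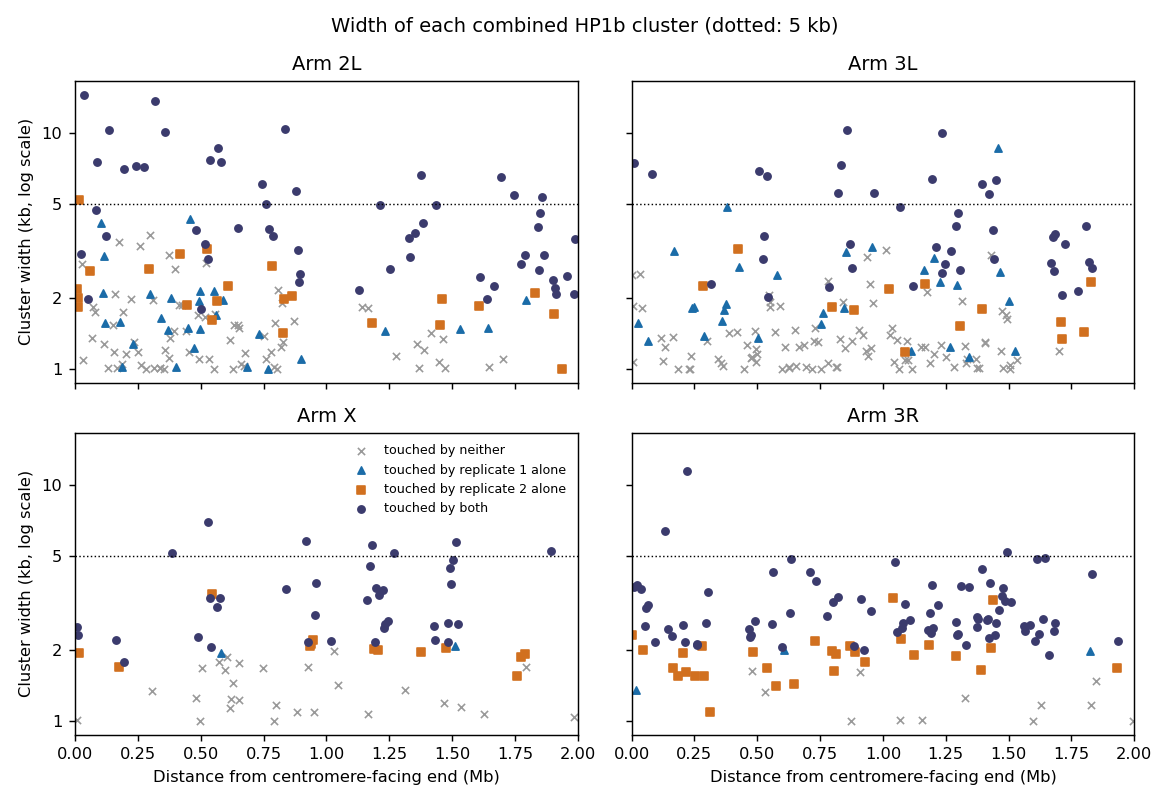
Width of each of the 575 combined clusters, on a log axis in kb, against the distance of its inner edge from the centromere-facing end, with symbols for the replicates that touch it and a dotted line at 5 kb. Clusters touched by neither replicate have a median width of 1243 bp, and none of them reaches 5 kb. They crowd the inner part of 2L and the inner 1500 kb of 3L.

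Of the 575 combined clusters, 43 were at least 5 kb wide, or 7.48%, where all combined clusters of the 4 arms gave 5.71%. In replicate 1 the share was 5.90% at the ends and 3.02% on the rest of the arms. In replicate 2 these were nearly equal, at 5.02% and 4.94%. By centre, 28 of the 336 combined clusters in the inner 1 Mb were that wide (8.33%), and 15 of the 239 in the outer 1 Mb (6.28%). Both libraries touched 41 of the 43 by at least 1 bp, and the other 2 were each touched by 1 library. A touch could be partial, as for the second widest of 3L, covered to 40.3% by replicate 1 and 29.1% by replicate 2. By arm the 43 numbered 19 on 2L, 14 on 3L, 7 on X and 3 on 3R. As shares of the combined clusters of each end these were 10.4%, 7.61%, 8.64% and 2.36%. The rest of the same arms gave 4.40%, 4.85%, 7.91% and 4.49%, so the X share was near that of its arm. Of the 43, 8 reached 10 kb, of which 5 were on 2L. Shares over all 4 arms are not given for the touching or for 10 kb, so neither count is read as particular to the ends. Merging clusters under 1000 bp apart raised the count from 43 to 73. Across all members, width showed little order by distance, with a rho of 0.0418 on 2L, 0.135 on 3L, 0.142 on X and 0.0699 on 3R.

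Support by the single libraries differed between the ends. Of the 575 combined clusters, 217 were touched by a cluster of both libraries, or 37.7% (95% Wilson interval 33.9 to 41.8), where all 5901 combined clusters of the 4 arms gave 56.9%. By end the share was 64.6% on 3R (55.9 to 72.3), 46.9% on X (36.4 to 57.7), 30.6% on 2L (24.4 to 37.6) and 22.3% on 3L (16.9 to 28.8). On the rest of each arm it ranged only from 57.7% to 60.4%. The 3R end was thus close to its arm, which gave 60.4%, and those of 2L and 3L were far below theirs. The X end was also lower than its arm at 57.7%, a value at the upper bound of its interval. The intervals cover counting error only, and neighbouring clusters are not independent.

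Clusters that neither library had made up 216 of the 575, or 37.6%, against 16.5% over the 4 arms. They were 101 of 184 on 3L (54.9%), 75 of 183 on 2L (41.0%), 28 of 81 on X (34.6%) and 12 of 127 on 3R (9.45%). They were narrow and low in score, with a median of 1243 bp and a median combined score of 0.41. Members touched by both had 3097 bp and 0.86. The rest of the arms was alike, with 1203 bp and 0.34 for clusters touched by neither and 2607 bp and 0.88 for those touched by both. Some single members that neither library touched scored high. The highest combined score of 3 ends, named after their values were seen, belonged to a cluster that neither library touched. These were 22458096 to 22459096 on 2L (score 2.88), 24093892 to 24094892 on 3L (2.47) and 21770076 to 21771308 on X (2.38). The narrowest cluster of either library measured 1301 bp and that of the combined set 1001 bp, and 122 of the 216 were narrower than 1301 bp. Among the 439 members of at least 1301 bp, 49.4% were touched by both and 21.4% by neither, against 66.4% and 5.86% on the rest of the arms. Leaving out the narrow clusters, an alternative chosen after the data were seen, therefore kept the direction.

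The share of unsupported clusters was higher towards the centromere on 2L and 3L. In 500-kb zones counted outward from the end of 3L, 62.8%, 62.5%, 53.8% and 20.0% of combined clusters were touched by neither library. On 2L the zones gave 50.0%, 43.6%, 43.5% and 7.41%. On 3R they gave 2.94%, 10.7%, 6.82% and 23.8%, and on X 33.3%, 50.0%, 18.5% and 33.3%, with 12 to 44 clusters in a zone.

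**Figure D3:**
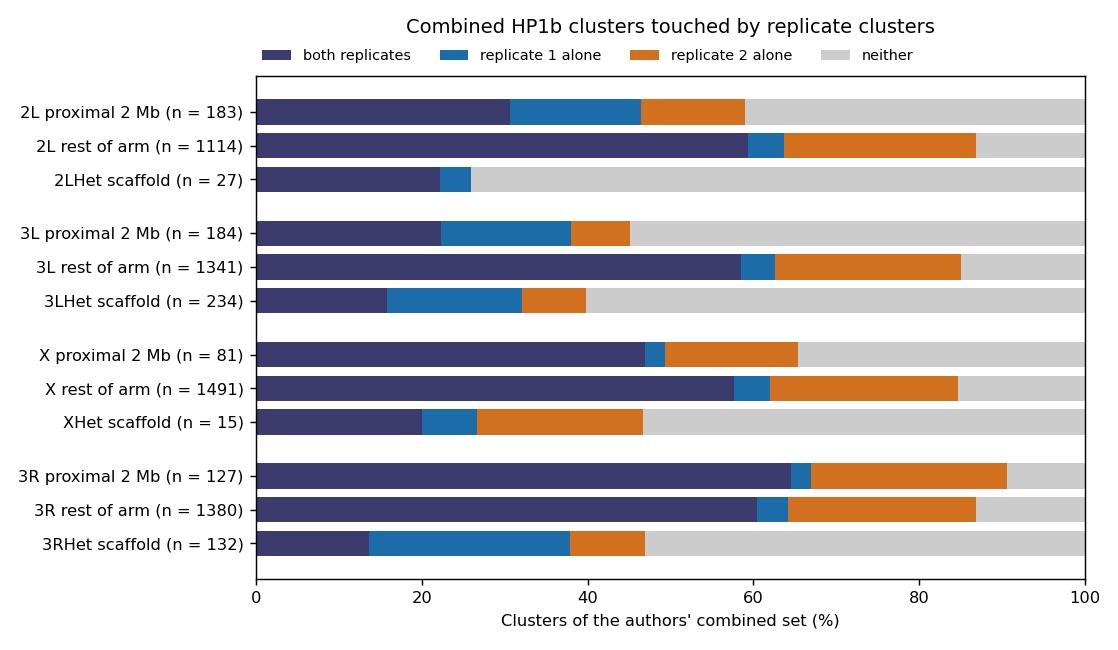
Percentage of combined HP1b clusters touched by clusters of both replicates, of replicate 1 alone, of replicate 2 alone or of neither, for the proximal 2 Mb, the rest of the arm and the Het scaffold of 4 arms, with the number of clusters in each row. The proximal ends of 2L, 3L and X lie between the rest of their arm and their Het scaffold in the part touched by both. Of these scaffolds, 2LHet rests on only 27 clusters and XHet on 15. The 3R end resembles the rest of 3R.

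The Het scaffolds hold mapped pericentromeric sequence of the same chromosomes. On 2LHet, 3LHet, XHet and 3RHet together, 15.7% of 408 combined clusters were touched by both libraries (95% Wilson interval 12.5 to 19.5) and 58.6% by neither. The scaffold 3LHet and the 3L end were alike in combined coverage (20.4% each), in clusters per Mb (91.6 and 92.0) and in median combined width (1564 bp and 1538 bp). In the single libraries 3LHet was covered to 8.30% and 6.56%, against 9.51% and 7.82% of the 3L end. The 3R end and 3RHet were unlike each other, with 13.6% of 132 combined clusters on 3RHet touched by both against 64.6% at the 3R end. Coverage there was 5.13% and 3.53%, against 11.0% and 15.0%.

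The libraries also differed in how much they covered. On the rest of the 4 arms, replicate 2 covered 1.36 times as much as replicate 1, with a range of 1.35 on 3R to 1.38 on X. The ratio was 1.35 at the 3R end and 1.31 at the X end, close to those arms, but 1.01 at the 2L end and 0.823 at the 3L end. On 3L it fell to 0.480 in the 500 kb next to the end, where replicate 1 covered 7.19% and replicate 2 covered 3.45%, and was 1.40 in the outermost 500 kb. On 2L it was 0.824 in the innermost and 1.22 in the outermost 500 kb. By step, replicate 2 was the higher in 18 and the lower in 1 of the 20 steps of 3R, and the higher in 5 and the lower in 13 of those of 3L.

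The difference in score between the libraries ordered the 4 ends as the coverage ratio did. Over clusters matched between the libraries, the log2 score of replicate 2 exceeded that of replicate 1 by a median of 0.32 on the rest of the arms (3180 clusters). At the ends this median was 0.40 on 3R (84 clusters), 0.24 on X (38 clusters), 0.20 on 2L (58 clusters) and 0.08 on 3L (43 clusters).

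The libraries ordered the 100-kb steps similarly by coverage. Over the 80 steps of 100 kb, coverage in the libraries was related with a Spearman rho of 0.899 and a Pearson r of 0.891, as a description across neighbouring steps. By arm, rho was 0.920 on 3R, 0.916 on X, 0.890 on 2L and 0.800 on 3L, with 20 steps each. Of replicate 1 clusters, 95% at the X end, 94.6% at the 3R end, 63.8% at the 2L end and 54.4% at the 3L end were touched by replicate 2, against 93.1% on the rest of the arms. Of replicate 2 clusters, replicate 1 touched 75% on X, 72.9% on 3R, 70.8% on 2L, 75% on 3L and 71.3% outside the ends. The low values were therefore those of replicate 1 clusters at 2L and 3L that replicate 2 lacked. Of the bases in a cluster of either library, 58.2% at the ends lay in both, against 63.9% on the rest of the arms. By end this share was 68.1% on X, 64.7% on 3R, 56.6% on 2L and 45.3% on 3L. Of the bases of combined clusters, 45.6% at the 3L end and 31.6% at the 2L end lay in neither library, against 22.6% on X, 8.62% on 3R and 11.0% on the rest of the arms.

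**Figure D4:**
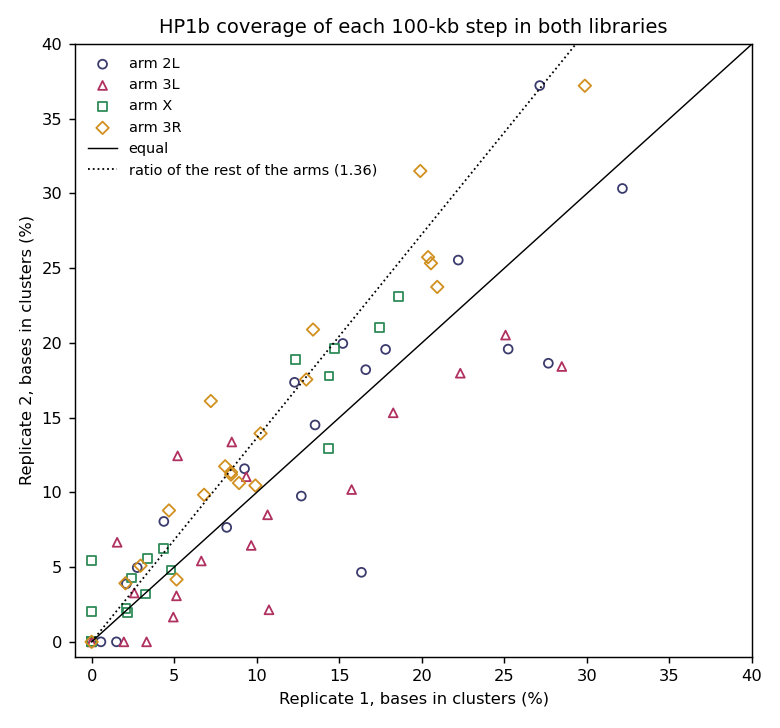
Percentage of each 100-kb step covered by HP1b clusters in replicate 1 (x axis) and replicate 2 (y axis) for the 80 steps of 4 arms, with a line of equal values and a dotted line at the ratio of the rest of the arms, 1.36. Of the 20 steps of each arm, 18 on 3R lie above the line of equal values and 13 on 3L lie below it.

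The order of the steps by distance was weak in the single libraries and stronger on 2L in the combined set. Spearman's rho of coverage with distance over the 20 steps of 2L was -0.47 in replicate 1 and -0.22 in replicate 2, the negative sign meaning more coverage nearer the centromere, and -0.63 in the combined set. It was -0.12 and -0.24 on 3R and -0.13 and -0.03 on X. On 3L it was -0.02 in replicate 1 and 0.25 in replicate 2. Median cluster width by step had a rho of 0.42 and 0.29 with distance on X and of 0.06 and 0.19 on 2L. In the combined set it was -0.01 on X and 0.39 on 2L. It had opposite signs in the libraries on 3L (0.17 and -0.10) and on 3R (-0.05 and 0.03). These values describe neighbouring steps and carry no p.

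The boundary of 2 Mb is a set distance and not a feature of the data. Just inside it on 2L lay a cluster 3.57 kb wide with a combined score of 0.97, and just outside it one of 2.53 kb with a score of 0.74. On 3L the outermost member, 2.69 kb wide with a score of 1.75, lay 1831 kb from the end and the next cluster, 1.60 kb wide with a score of 0.31, 2078 kb from it. On X the widths were 1.04 kb inside and 2.04 kb outside, and on 3R 1.00 kb and 1.96 kb, with scores of 0.60 and 0.42 on X and 0.36 and 0.31 on 3R. Genes were not assigned to any cluster and no sequence is shown, since the gene table used here follows release 6 and coordinates of the releases cannot be mixed.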

How the data were processed

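Per the submitters' processing notes, reads were aligned with Bowtie 0.12.7. Coordinates are FlyBase release 5, per the file headers. Which caller made the clusters, and with what cutoff, is not given in the sources used here. Each deposited cluster has 1 score assigned by the authors, read here as log2. Base 2 was inferred from the steps between repeated scores, and the quantity behind the score is not stated. The 2 ChIP lists are per library. The series-level list, a replicate set by its name, is called the combined set and was not taken as independent of them.

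Entries marked as depletion were dropped, 2 from the combined set, 1 from replicate 2 and 0 from replicate 1. Coverage, width, score and overlap (1 bp or more) were computed in Python 3.11.15 with numpy 2.4.6, pandas 2.3.3 and scipy 1.17.1 (figures with matplotlib 3.10.9), in steps of 100 kb. Clusters were matched between libraries by largest overlap, each used once. The code was checked on planted clusters of known coverage. Inner and outer 1 Mb and the rest of the arm used clipped bases. Clusters were counted by their centre in the inner and outer 1 Mb, and by the rule of membership for the proximal 2 Mb. The clusters of the rest of the arm were all those of the arm that were not members.

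Named regions are the 3 widest and, of those touched by both libraries, the 3 highest-scoring combined clusters of each end, the cluster nearest the end, the extreme steps and the longest empty stretch. The rule also took the widest cluster that neither library touched. The members, the rule and all measures were chosen with earlier results of these data known. Depth is unknown, and intervals cover counting error only. Alternatives are given in the closing section.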

Additional observations from a re-analysis of the deposited data

How the results depend on the processing

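A ratio or rho was taken to stay within 1 SD between the replicates, a share within its Wilson interval, a count within 1.5 times and the rho between replicates within 0.05, and to reverse where both replicates shared a direction that the alternative lost. Of 123 alternatives other than leaving out a replicate, 75 stayed, 42 moved and 6 reversed. Leaving out a replicate leaves the other's value, which by arithmetic lies inside 1 SD and cannot lose a shared direction, so these 32 alternatives say nothing about stability. For coverage and median width of the 4 ends, coverage of 3L and the 3L rho with distance, the replicates themselves had opposite directions. The cause of each change was not tested.

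In the combined set, proximal over rest was 1.18 for coverage of the 4 ends, 0.901 for median width and 1.21 for clusters per Mb (0.882 in the replicates, a reversal), and 1.83 on 2L, 1.39 on 3L, 0.509 on X and 1.25 on 3R for coverage. Inner over outer coverage was 2.78 on 2L, 1.06 on 3L (0.784 in the replicates, a reversal) and 0.904 on X, and rho with distance was -0.63 on 2L and -0.15 on 3L. With the higher-scoring 50% of each list, the width ratio was 1.11, coverage was 0.504 on X and 1.20 on 3R, inner over outer was 0.601 on X and 0.626 on 3R, and rho was 0.017 on X (a reversal from -0.077) and -0.085 on 3R. With clusters of at least 1500 bp, 3R gave 1.31 and inner over outer on X 0.701, and with clusters under 1000 bp apart merged these were 1.28 and 0.710. On X and 3R the SD between replicates was so small that slight shifts count as moves.

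With the proximal 1 Mb, the width ratio was 0.95, the score difference -0.10, coverage 1.78 on 2L, 0.386 on X and 1.16 on 3R, and rho -0.33 on 3R. With the proximal 4 Mb, coverage was 0.684 on X and 1.03 on 3R, and rho -0.076 on 2L, -0.29 on 3R and 0.33 on X (a reversal). With 200-kb steps rho on X was 0.0090, also a reversal. Against the distal 2 Mb the score difference was 0.033 (-0.032 against the rest, a reversal) and coverage on 3R 1.56. The share of members touched by both was 32.7% with reciprocal 50% overlap, 42.9% in the higher-scoring 50%, 51.2% at 1500 bp or more, 49.4% at 1301 bp or more (chosen after seeing the data), 28.3% over 1 Mb and 47.1% over 4 Mb. Members of at least 5 kb numbered 73 after merging, 28 over 1 Mb and 68 over 4 Mb; 67 reached 4 kb and 8 reached 10 kb.

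No paired analysis was possible because only 1 group, the ChIP libraries, came with files. Planned comparisons with genes were not run for want of a release 5 annotation. Without read depths, the effect of depth on these calls was not tested.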

Other observations

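The widest combined clusters that neither library touched were 3.68 kb on 2L (22708422 to 22712104, combined log2 score 0.54), 3.19 kb on 3L (23527048 to 23530234, score 0.41), 1.98 kb on X (21389540 to 21391518, score 0.39) and 1.64 kb on 3R (479518 to 481154, score 0.15).

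Median gaps were shorter on the inner part of 2L. In the combined set the median gap between neighbouring clusters was 2.23 kb in the inner 1 Mb and 10.4 kb in the outer 1 Mb, and 31.8% of 132 inner gaps were under 1 kb, against 10.2% in the outer 1 Mb and 14.6% on the rest of 2L. In replicate 1 the share under 1 kb was no higher inside (16.9%) than in the outer 1 Mb (18.2%), and in replicate 2 it was 18.9% and 8.82%. The libraries had a median inner gap of 6.74 kb (replicate 1) and 5.87 kb (replicate 2), against 16.8 kb and 17.1 kb in the outer 1 Mb.

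Some combined scores were shared exactly by 3 or more clusters of the list. These were 50 of the 575 members (8.70%) and 4.06% of the combined clusters on the rest of the arms. By end they were 21 of 183 on 2L, 18 of 184 on 3L, 7 of 81 on X and 4 of 127 on 3R. In the libraries the shares at the ends were 3.93% (replicate 1) and 4.08% (replicate 2), against 4.40% and 3.47% on the rest of the arms.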
